A study of Mus musculus with 6 samples.

Results

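Complement and coagulation factors were examined in the livers of 3 Retnla transgenic mice (Tg 5, Tg 6 and Tg 7) and 3 non-transgenic mice (non-Tg 1, non-Tg 2 and non-Tg 3). A set of 46 genes was taken by symbol, covering the clotting cascade, fibrinogen, its inhibitors, fibrinolysis and the complement pathways. For 43 of them a probe set with exactly 1 gene symbol was at hand, and the probe set with the highest mean over the 6 arrays stood for each gene. Of these, 42 lay above the filter on dim probe sets and were tested among 12705 genes in all. C5ar1 lay below the filter, and C3, Cfd and Cpb2 were not analysed here.

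All mice were males of the C57BL6/J background aged 3 months. Both groups had been moved at 8 weeks of age to a high-fat diet, with 21% fat and cholesterol at 0.15%, and had eaten it for 4 weeks. The Tg mice carried a transgene for Retnla, the secreted resistin-like molecule alpha, and the non-Tg mice did not. The labels used here name neither the promoter that drives the transgene nor the number of founder lines. Each liver gave 1 Affymetrix Mouse Genome array, so the mouse is the replicate and the 3 arrays per group limit the precision.

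Hepatocytes make most of the soluble clotting and complement proteins and secrete them into the blood. Clotting runs from a contact branch and a tissue factor branch into a common path, in which thrombin turns fibrinogen into fibrin, and plasmin later dissolves the clot. Complement starts through the classical, lectin or alternative pathway, and all of these cleave the central component C3 and then C5. C5b then assembles with C6, C7, C8 and C9 into a pore, the membrane attack complex. Several of these proteins, fibrinogen among them, belong to the acute phase response, in which their transcripts rise in hepatocytes under interleukin-6.

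Signals are given as deposited, on the log2 scale, where a difference of 1 is a doubling, and each difference is Tg minus non-Tg. Retnla itself stood at 16.04, 15.91 and 16.04 in Tg livers, against 6.03, 7.41 and 6.48 in non-Tg livers. Hepatocyte markers, among them Alb and Ttr, differed by a median of -0.01 over 8 genes. Of the 12705 genes 2 passed a limma adjusted p of 0.05, which is 0.0157% of them, and these were Retnla and Nnt. Nnt, a mitochondrial transhydrogenase known to be defective in C57BL/6J mice, had signals of 13.01, 12.71 and 12.70 in Tg livers, against 11.30, 11.37 and 11.44 in non-Tg livers. Both groups carry the same strain label. A difference in genetic background would fall between the same mice, so it cannot be told apart from the transgene in any Tg minus non-Tg value here. The arrays also fell into 2 sets by bioC, a bacterial control transcript. Its mean log2 signal was 9.83 to 9.94 in Tg 5, Tg 6 and non-Tg 1, and 11.21 to 11.44 in Tg 7, non-Tg 2 and non-Tg 3. Each set holds mice of both groups, so many results below are also given within the sets or with the sets as a block.

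None of the 42 tested genes passed the adjusted threshold, and the smallest limma adjusted p was 0.432, for C6. At an unadjusted p under 0.05 limma counted 8 of them, 4 higher and 4 lower in Tg livers, or 19.0% of the 42. Over all genes tested that share was 6.05%, made up of 2.93% higher and 3.12% lower. Those higher were C6, C9, Hc and C2, all of the complement system. Those lower were Mbl1, F13b, Plat and Proz. The values of the 2 groups did not overlap for 6 of the 42 genes, or 14.3%, against 11.7% of all genes, made up of 6.04% higher and 5.64% lower. C6, C9 and Hc were the ones above, and Mbl1, F13b and Plat the ones below. Plat had a Tg mean below the filter on dim probe sets and was tested only through its higher non-Tg signals. Without Plat the counts were 7 of 41 genes at an unadjusted limma p under 0.05, or 17.1%, and 5 without overlap, or 12.2%. The median difference over the 42 genes was 0.03, beside a median of 0.01 over all genes. Centring each array on its median put the median of the 42 genes at -0.047. That step moves the difference of every gene by the same amount, so it leaves the set's place beside all genes unchanged. Of the 42 genes 26 stood above 0 and 16 below, so 61.9% were above 0, against 52.1% of all genes. In a fit that took the sets as a block, 4 of the 42 genes had an unadjusted limma p under 0.05, namely C6, C9, Hc and Mbl1, against 5.67% of all genes. None of the 42 passed the adjusted threshold in that fit, which 0.0315% of all genes did. A gene that missed the threshold is not shown to be equal in the 2 groups. With 3 mice against 3 the exact permutation test over the 20 assignments cannot give a p below 0.1, the value that C6, C9, Hc, Mbl1, F13b and Plat reached.

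**Figure D1:**
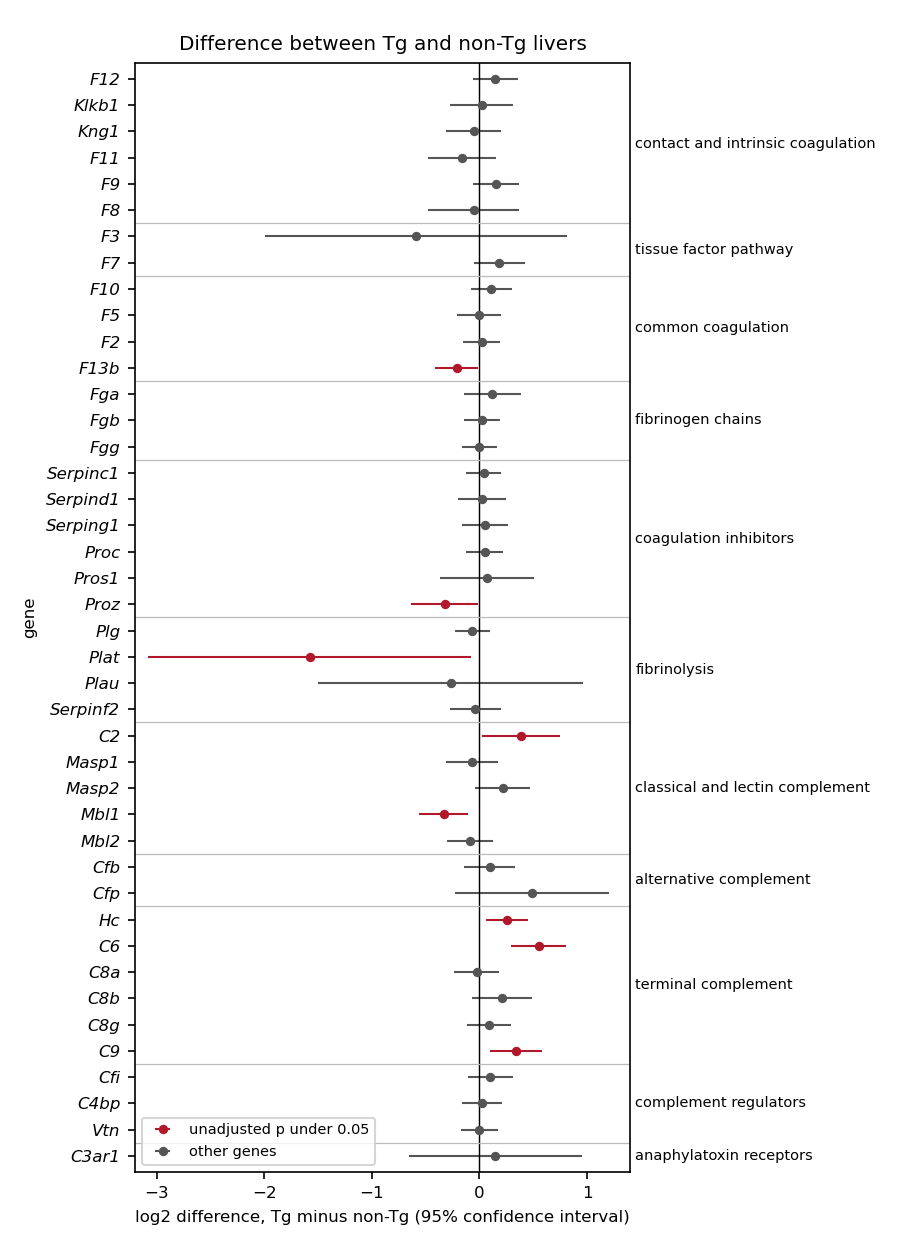
Log2 difference between Tg and non-Tg livers for the 42 tested genes (points), with the 95% confidence interval of the limma fit (bars), ordered by branch of the clotting and complement systems. Most points lie near 0, and the 8 red points mark an unadjusted p under 0.05, with C6 at 0.55 and Plat at -1.58 at the ends.

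Genes of the membrane attack complex made up 3 of the 4 genes with an unadjusted p under 0.05 on the higher side. Of the 6 terminal genes 5 stood above 0, with a median difference of 0.24, and 3 had an unadjusted p under 0.05. These shares are 83.3% and 50%, against 52.1% and 6.05% of all genes. C6 (Entrez gene 12274), which joins the complex after C5b, had signals of 13.49, 13.28 and 13.39 in Tg livers, against 13.03, 12.83 and 12.65 in non-Tg livers. The lowest Tg liver lay 0.25 above the highest non-Tg liver. The difference was 0.55 ± 0.11 (SE), or 1.47-fold (95% interval 1.23 to 1.75), with a p from limma of 0.000796, or 0.432 once adjusted. C6 differed by 0.36 and 0.65 inside the lower and the higher array set. As a block, the sets left it at 0.50 ± 0.11 (SE).

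C9 (Entrez gene 12279), the subunit that forms the wall of the pore, had signals of 15.38, 15.30 and 15.03 in Tg livers, against 15.01, 14.94 and 14.74 in non-Tg livers. The groups did not overlap, but Tg 7 and non-Tg 1 lay only 0.02 apart. The difference was 0.34 ± 0.11 (SE), or 1.27-fold (95% interval 1.07 to 1.501), with a p from limma of 0.0113, or 0.770 once adjusted. Hc (Entrez gene 15139), which encodes complement C5 in the mouse, the source of C5a and C5b, had signals of 14.77, 14.63 and 14.49 in Tg livers, against 14.39, 14.39 and 14.33 in non-Tg livers. The 3 non-Tg livers lay close together, and every Tg liver lay above them, Tg 7 by the least. Hc differed by 0.26 ± 0.09 (SE), or 1.20-fold (95% interval 1.04 to 1.37), with a p from limma of 0.0154, or 0.779 once adjusted. Inside the lower and the higher array set the differences were 0.33 and 0.19 for C9 and 0.31 and 0.13 for Hc.

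The chains of C8, which anchors the complex in the membrane, did not share one pattern. C8b, the beta chain, differed by 0.21 ± 0.12 (SE), with Tg 5 at 13.78 and the other 5 livers between 13.26 and 13.46. It stood at 0.29 within the lower set of arrays and 0.00 within the higher one. C8a, the alpha chain, differed by -0.03 over signals of 14.48 to 14.74, and C8g, the gamma chain, by 0.09 over signals of 14.58 to 14.90. C8a and C8b are neighbours in the genome, with no protein-coding gene between them. C6 and C9 both lie on chromosome 15, with 8 protein-coding genes between them in RefSeq's order. Of these 6 were tested, 2 above and 4 below 0, and each of them had overlapping groups, while 11.7% of all genes had groups without overlap. The differences of these 6 genes ran from -0.12 to 1.24, with a median of -0.06. The largest was that of Ptger4, whose signals ran from 3.26 to 7.17. C7, the remaining soluble part of the complex, lies among the others and was not analysed here.

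**Figure D2:**
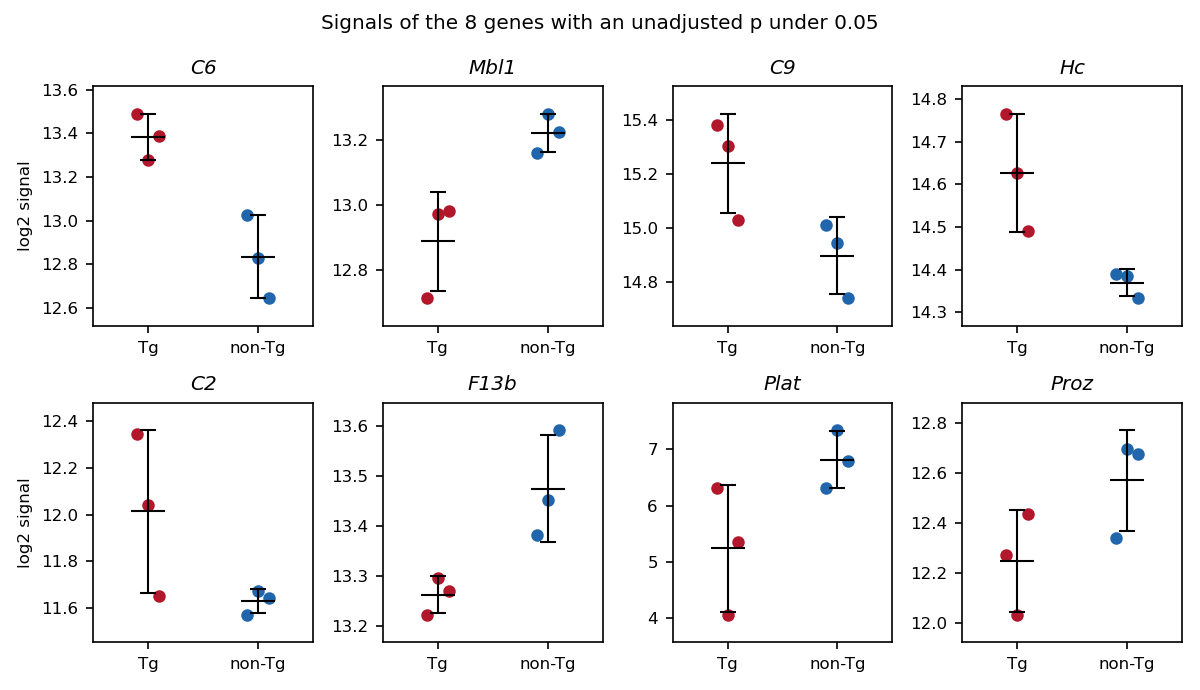
Log2 signal of the 8 genes with an unadjusted p under 0.05, 1 panel each with its own axis range, which does not start at 0. Points are mice, the wide line is the mean and the bars are 1 SD (n = 3); the groups are apart for C6, Mbl1, C9, Hc, F13b and Plat and overlap for C2 and Proz.

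Promoters of the 4 tested genes with the smallest p are shown because these are the genes in which the groups differed most clearly. They come from RefSeq on GRCm38.p6 and run from 250 bases before to 50 bases after the annotated start, 5′ to 3′ on the strand of the gene. C6 lies at chr15:4726960-4727259 on the plus strand, C9 at chr15:6445096-6445395 on the plus strand, Hc at chr2:35061363-35061662 on the minus strand and Mbl1 at chr14:41151206-41151505 on the plus strand. Capitals mark matches to any of 6 motifs searched on both strands: the TATA box (TATAAA), HNF1 (GTTAAT, 1 base of any kind, then ATT), HNF4 (CAAAGTCCA), C/EBP (TTGCNNAA), STAT (TTCNNNGAA) and NF-kB (GGGA, 2 bases of any kind, then TTCC); N stands for any base.
C6: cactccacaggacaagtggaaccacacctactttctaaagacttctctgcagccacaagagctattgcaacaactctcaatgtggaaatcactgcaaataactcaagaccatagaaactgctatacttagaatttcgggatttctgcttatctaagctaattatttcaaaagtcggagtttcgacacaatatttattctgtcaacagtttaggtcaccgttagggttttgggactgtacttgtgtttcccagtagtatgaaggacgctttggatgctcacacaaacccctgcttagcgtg
C9: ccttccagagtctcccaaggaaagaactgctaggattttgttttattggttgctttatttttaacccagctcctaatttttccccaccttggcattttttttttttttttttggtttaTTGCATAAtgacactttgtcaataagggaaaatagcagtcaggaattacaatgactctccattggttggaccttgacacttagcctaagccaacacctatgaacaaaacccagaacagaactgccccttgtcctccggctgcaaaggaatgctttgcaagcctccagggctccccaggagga
Hc: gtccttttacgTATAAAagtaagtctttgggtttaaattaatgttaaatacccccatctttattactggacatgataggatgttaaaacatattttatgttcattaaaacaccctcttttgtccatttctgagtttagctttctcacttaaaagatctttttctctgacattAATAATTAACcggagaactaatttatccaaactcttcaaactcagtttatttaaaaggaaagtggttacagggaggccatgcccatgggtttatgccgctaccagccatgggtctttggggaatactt
Mbl1: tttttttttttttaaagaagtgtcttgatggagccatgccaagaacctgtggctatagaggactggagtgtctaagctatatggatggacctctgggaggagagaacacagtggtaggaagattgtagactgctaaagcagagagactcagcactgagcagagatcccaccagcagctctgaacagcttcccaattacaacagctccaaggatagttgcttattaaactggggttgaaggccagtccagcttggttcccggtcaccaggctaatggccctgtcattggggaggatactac
The windows of C6 and Mbl1 held none of these letters. C9 had a C/EBP match that starts at base -132 from the start, and Hc had a TATA match at -239 and an HNF1 match at -78. C6, C9 and Hc had no motif of the 6 in common within these windows. A match is a description of letters and not a shown binding site.

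Promoters were at hand for 36 of the 46 genes, 37 windows in all since C8g has a pair of them. The HNF1 letters stood in 3 of the 37 windows, those of C4bp, F13b and Hc, and in 0.399% of the 32851 promoters of all genes. The C/EBP letters stood in 9 windows, Fga and Fgb among them, and in 10.8% of all promoters. STAT letters were found in 7 windows, again with Fga and Fgb, and in 8.30% of all promoters. The TATA letters stood in 6 windows and in 13.6% of all promoters. The HNF4 and NF-kB letters were in 0 of the 37 windows each, beside 0.475% and 1.47% of all promoters.

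Genes that start complement lay on both sides of 0. Mbl1 (Entrez gene 17194), mannose-binding lectin A, which recognises sugars on microbes, had signals of 12.71, 12.97 and 12.98 in Tg livers, against 13.16, 13.28 and 13.22 in non-Tg livers. All Tg livers lay below all non-Tg livers, Tg 5 by the most. The difference was -0.33 ± 0.10 (SE), or 0.79-fold (95% interval 0.68 to 0.93), with a p from limma of 0.00900, or 0.735 once adjusted. Mbl1 stood at -0.32 and -0.27 inside the lower and the higher array set. Mbl2, mannose-binding lectin C, differed by -0.08 ± 0.09 (SE) with overlapping groups over signals of 13.85 to 14.13.

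C2 (Entrez gene 12263), the protease shared by the classical and lectin pathways, had signals of 12.35, 12.04 and 11.65 in Tg livers, against 11.57, 11.67 and 11.64 in non-Tg livers. Tg 5 and Tg 6 were high, while Tg 7 lay among the non-Tg livers. The difference was 0.38 ± 0.16 (SE), with a p from limma of 0.0397, or 0.807 once adjusted, and it was 0.62 and -0.01 within the lower and higher sets. The other C2 probe sets gave 0.27 and 0.23. Without Tg 5 the C2 difference was 0.22.

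Masp2, the protease that mannose-binding lectin activates, had signals of 12.83, 12.65 and 13.03 in Tg livers, against 12.68, 12.53 and 12.64 in non-Tg livers. Tg 7 was the highest and the groups overlapped. It differed by 0.22 ± 0.11 (SE), with a limma p of 0.0861, and its other probe set gave 0.01. Masp1, the partner protease, differed by -0.07 over signals of 12.40 to 12.69, and its 4 other kept probe sets ran from -0.44 to 0.55, the lowest of them without overlap between the groups. Over the 5 classical and lectin genes the median difference was -0.07.

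The alternative pathway was represented by Cfb and Cfp. Cfb, factor B, the protease of the alternative C3 convertase, had signals of 14.12, 14.03 and 13.74 in Tg livers, against 13.83, 13.86 and 13.90 in non-Tg livers. The groups overlapped and the difference was 0.10 ± 0.11 (SE). Cfp, properdin, which stabilises that convertase and is made by myeloid cells, had signals of 10.80, 11.30 and 9.85 in Tg livers, against 10.47, 9.86 and 10.16 in non-Tg livers. On this probe set Tg 6 was the highest and Tg 7 the lowest liver for Cfp, with non-Tg 2 just above Tg 7. The other kept Cfp probe set gave 0.07. On it non-Tg 2 was the highest liver, at 7.77, followed by Tg 7, at 7.63, so the Cfp probe sets disagree on the order of the mice. The difference was 0.49 ± 0.32 (SE), with a limma p of 0.157, and it was 0.59 and -0.16 inside the lower and the higher array set.

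Macrophage markers differed between the same livers. Of the 12 markers, which include Clec4f, Cd5l and Csf1r and the 3 C1q chains, 11 stood above 0 over all 6 livers. That is 91.7%, against 52.1% of all genes. None of the 12 had an unadjusted limma p under 0.05. Their mean log2 signal was 10.66, 11.70 and 10.05 in Tg livers, against 10.50, 10.49 and 10.51 in non-Tg livers. Tg 6 was the highest and Tg 7 the lowest liver for this mean too. The median difference of the 12 markers was 0.58 and -0.49 inside the lower and the higher array set and 0.08 with the block. Without Tg 6 it was -0.18, and 3 of the 12 stood above 0. Cfp differed by 0.16 without Tg 6. The part of these markers in the Cfp values was not tested, and in bulk liver more cells of a type and more RNA per cell cannot be told apart.

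C1qa, C1qb and C1qc, the recognition subunits of the classical pathway that Kupffer cells make, differed by 0.24, 0.36 and 0.42, with Tg 6 at the top, at 12.19, 12.12 and 12.85. Without Tg 6 these differences were -0.18, 0.14 and -0.05. They were 0.53, 0.51 and 0.81 inside the lower array set and -0.49, -0.08 and -0.52 inside the higher one, so the sign turned for all 3 chains. The receptor for C3a, C3ar1, had signals of 7.25, 7.66 and 6.86 in Tg livers, against 7.52, 6.60 and 7.21 in non-Tg livers. The groups overlapped, the difference was 0.15 ± 0.36 (SE), and its other kept probe sets gave -1.30 and 1.06, so the probe sets disagree. C5ar1, the receptor for C5a, had signals of 6.03, 3.52 and 6.67 in Tg livers, against 6.23, 6.66 and 2.88 in non-Tg livers. These values scatter below and just above the filter of 5.63, and no test was made.

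**Figure D3:**
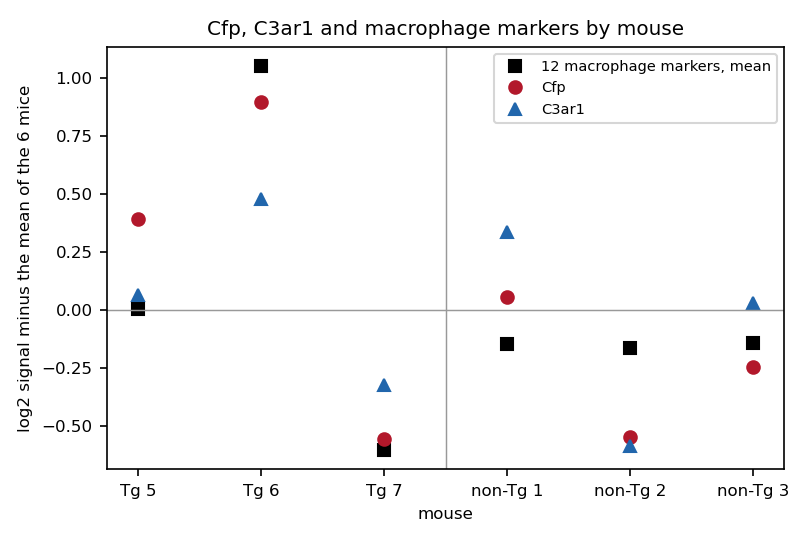
Log2 signal of Cfp (circles), C3ar1 (triangles) and the mean of 12 macrophage markers (squares) in each mouse, minus the mean of the 6 mice. Cfp and C3ar1 are drawn from their probe set of highest mean. Tg 6 is the highest liver for all 3 measures, and Tg 7 is the lowest for Cfp on this probe set and for the marker mean.

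For the 3 regulators of complement that hepatocytes secrete, the median difference was 0.03, and none had an unadjusted limma p under 0.05. Cfi, factor I, the protease that inactivates C3b and C4b, had signals of 15.24, 15.03 and 14.89 in Tg livers, against 14.95, 14.98 and 14.93 in non-Tg livers. C4bp, the cofactor of factor I for C4b, had signals of 13.96, 14.13 and 14.07 in Tg livers, against 13.97, 14.04 and 14.07 in non-Tg livers. Vtn, vitronectin, which binds the forming attack complex and keeps it from membranes, had signals of 15.58, 15.50 and 15.42 in Tg livers, against 15.44, 15.58 and 15.48 in non-Tg livers. Tg 5 was the highest liver for Cfi, and the groups overlapped for all 3 genes. The differences were 0.10 ± 0.09 (SE) for Cfi, 0.03 ± 0.08 (SE) for C4bp and 0.00 ± 0.08 (SE) for Vtn. The other Vtn probe set gave 0.13, with overlapping groups.

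A wider list of 30 complement genes held 19 tested genes, none of which passed the adjusted limma threshold. At an unadjusted p under 0.05 limma counted 0 higher and 1 lower, or 5.26% of the 19, against 6.05% of all genes. The same share, 5.26%, had groups without overlap, against 11.7% of all genes. That gene was Cd59a, a membrane protein that blocks the insertion of C9. Cd59a had signals of 11.45, 11.59 and 11.73 in Tg livers, against 11.81, 11.94 and 12.02 in non-Tg livers, so the Tg livers lay below the non-Tg livers. The difference was -0.33 ± 0.12 (SE), with a p from limma of 0.0169, or 0.782 once adjusted. Its other probe set gave -0.33. C1ra, a protease of the C1 complex, differed by 0.26, and Clu, clusterin, another inhibitor of the attack complex, by 0.04. The median difference over the 19 genes was 0.05, and it was 0.13 and -0.08 inside the lower and the higher array set.

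The 6 genes of the contact and intrinsic branch had a median difference of -0.02, 3 above and 3 below 0, and none had an unadjusted limma p under 0.05. F12, factor XII, which starts the contact branch, had signals of 14.004, 13.91 and 13.76 in Tg livers, against 13.85, 13.70 and 13.68 in non-Tg livers. F9, factor IX, the protease lacking in haemophilia B, had signals of 13.71, 13.79 and 13.63 in Tg livers, against 13.71, 13.46 and 13.52 in non-Tg livers. In both genes Tg 5 and Tg 6 were among the higher livers, and the groups overlapped. F12 differed by 0.15 ± 0.09 (SE) and F9 by 0.15 ± 0.10 (SE). F11, factor XI, which factor XII activates, had signals of 11.70, 11.55 and 11.92 in Tg livers, against 11.80, 12.13 and 11.72 in non-Tg livers. Non-Tg 2 was the highest liver, the groups overlapped, and the difference was -0.16 ± 0.14 (SE). Klkb1, plasma prekallikrein, stood at 0.02 over 13.07 to 13.57. Kng1, kininogen, the source of bradykinin, stood at -0.05 over 15.02 to 15.42, with non-Tg 1 the lowest. F8, factor VIII, which sinusoidal endothelial cells make, differed by -0.05 over 8.72 to 9.27, with Tg 5 the lowest.

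F7, factor VII, which tissue factor activates, had signals of 12.29, 12.10 and 12.24 in Tg livers, against 11.99, 12.14 and 11.95 in non-Tg livers. The groups overlapped only through Tg 6 and non-Tg 2, and the difference was 0.19 ± 0.11 (SE), with a limma p of 0.111. It was 0.21 and 0.20 inside the lower and the higher array set. F3, tissue factor itself, was dim, with signals of 7.58, 5.25 and 6.88 in Tg livers, against 6.90, 8.08 and 6.50 in non-Tg livers. These lie around the array medians of 6.49 to 6.74 log2 units, and the groups overlapped widely. F3 differed by -0.59 ± 0.63 (SE), and by -0.34 when 64 was added ahead of the log.

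In the common path 1 of 4 genes, F13b, had an unadjusted limma p under 0.05, or 25%, against 6.05% of all genes. F13b (Entrez gene 14060) encodes the carrier subunit of factor XIII, the enzyme that crosslinks fibrin, and had signals of 13.22, 13.30 and 13.27 in Tg livers, against 13.38, 13.45 and 13.59 in non-Tg livers. All Tg livers lay below all non-Tg livers, by 0.09 at the closest. F13b differed by -0.21 ± 0.09 (SE), with a p from limma of 0.0402, or 0.807 once adjusted, and by -0.12 and -0.25 within the lower and higher sets. F2, prothrombin, had signals of 15.56, 15.43 and 15.35 in Tg livers, against 15.42, 15.42 and 15.45 in non-Tg livers. F10, factor X, which turns prothrombin into thrombin, had signals of 13.96, 13.79 and 13.84 in Tg livers, against 13.70, 13.82 and 13.74 in non-Tg livers. Tg 5 was the highest liver for both, and the groups overlapped. The differences were 0.02 ± 0.08 (SE) for F2 and 0.11 ± 0.09 (SE) for F10, whose other probe sets gave -0.11 and 0.22. F5, factor V, its cofactor, differed by -0.00 over signals of 13.74 to 13.99, and its groups overlapped. The other F5 probe set had signals of 13.58, 13.46 and 13.36 in Tg livers, against 13.68, 13.66 and 13.78 in non-Tg livers. On it the Tg livers lay below the non-Tg livers without overlap, and F5 differed by -0.24, with a limma p of 0.0267, so the F5 probe sets disagree.

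Fibrinogen, the precursor of fibrin, is built from 3 chains whose genes sit side by side on chromosome 3. Fga, the alpha chain, had signals of 16.20, 16.08 and 15.77 in Tg livers, against 16.07, 15.82 and 15.79 in non-Tg livers. Fgb, the beta chain, had signals of 16.16, 16.01 and 15.98 in Tg livers, against 15.9998, 16.09 and 15.99 in non-Tg livers. Fgg, the gamma chain, had signals of 15.93, 15.83 and 15.77 in Tg livers, against 15.83, 15.90 and 15.80 in non-Tg livers. Tg 5 was the highest liver for all 3 chains and Tg 7 the lowest, and the groups overlapped throughout. Fga differed by 0.12 ± 0.12 (SE), Fgb by 0.03 ± 0.07 (SE) and Fgg by -0.00 ± 0.07 (SE). The 95% confidence intervals ran from -0.15 to 0.39 for Fga, from -0.14 to 0.19 for Fgb and from -0.16 to 0.16 for Fgg.

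Inhibitors of clotting had a median difference of 0.04 over 6 genes. Serpinc1, antithrombin, had signals of 15.81, 15.65 and 15.69 in Tg livers, against 15.68, 15.71 and 15.63 in non-Tg livers. Proc, protein C, which degrades the activated factors V and VIII, had signals of 14.41, 14.30 and 14.30 in Tg livers, against 14.26, 14.31 and 14.30 in non-Tg livers. The groups overlapped for both, with differences of 0.04 ± 0.07 (SE) and 0.05 ± 0.08 (SE). Proz (Entrez gene 66901), protein Z, a cofactor in the inhibition of factor X, had signals of 12.27, 12.03 and 12.44 in Tg livers, against 12.34, 12.69 and 12.68 in non-Tg livers. Tg 7 lay above non-Tg 1, so the groups overlapped, and the difference was -0.32 ± 0.14 (SE), with a p from limma of 0.0426, or 0.807 once adjusted. The other Proz probe set gave 0.13, in the opposite direction. Serpind1, heparin cofactor II, differed by 0.03 over signals of 13.66 to 13.96. Serping1, the C1 inhibitor, which also blocks kallikrein, differed by 0.05 over 14.74 to 15.05, with Tg 6 the highest. Pros1, protein S, the cofactor of protein C, differed by 0.07 over 10.38 to 11.07, and by 0.36 and -0.40 inside the lower and the higher array set.

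F7, F10 and Proz follow each other on chromosome 8 with no protein-coding gene between them, and they differed by 0.19, 0.11 and -0.32. Other neighbours were C2 and Cfb, at 0.38 and 0.10, and F11 and Klkb1, at -0.16 and 0.02. The 7 vitamin K-dependent genes, F2, F7, F9, F10, Proc, Pros1 and Proz, had a median of 0.07, 6 above 0, and 1 of them, Proz, had an unadjusted limma p under 0.05. The 16 measured serine proteases had a median of 0.07, with C2 and Plat the ones at an unadjusted limma p under 0.05. At that p the shares were 14.3% of the vitamin K-dependent genes and 12.5% of the serine proteases, against 6.05% of all genes.

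All 4 measured genes of fibrinolysis stood below 0, and none passed. Without Tg 7, Plau stood at 0.18 and Serpinf2 at 0.04, both above 0. Plat (Entrez gene 18791), tissue plasminogen activator, which endothelial cells make, had signals of 6.31, 4.06 and 5.35 in Tg livers, against 6.32, 7.34 and 6.79 in non-Tg livers. The groups did not overlap, although Tg 5 and non-Tg 1 lay 0.01 apart, and the mean of the Tg livers, 5.24, lay below the filter of 5.63. The difference of -1.58 is thus set against a signal in the dim range, and it was -0.74 with 64 added before the log. It was -0.99 without Tg 6 and -2.11 without Tg 5. The other Plat probe set lay below the filter. Of 10 sinusoidal endothelial markers, such as Stab2 and Clec4g, 7 stood above 0 and none had an unadjusted limma p under 0.05. Their mean log2 signal was 10.08, 10.12 and 9.78 in Tg livers, against 9.94, 9.99 and 9.99 in non-Tg livers, and its part in the Plat values was not tested.

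Plg, plasminogen, the precursor of plasmin, had signals of 15.74, 15.63 and 15.58 in Tg livers, against 15.66, 15.70 and 15.78 in non-Tg livers. Plau, urokinase, was dim, with signals of 6.75, 6.31 and 5.20 in Tg livers, against 6.71, 6.38 and 5.98 in non-Tg livers. The groups overlapped for both, with Tg 7 the lowest liver. Plg differed by -0.07 ± 0.07 (SE) and Plau by -0.27 ± 0.55 (SE). Serpinf2, the plasmin inhibitor alpha 2-antiplasmin, differed by -0.04 over signals of 13.84 to 14.16. In a wider list of 30 clotting and fibrinolysis genes, 20 were tested, none passed, and limma counted 0 at an unadjusted p under 0.05. Their median was 0.05, with the protease inhibitor Pzp at 0.01 and the histidine-rich protein Hrg at 0.04.

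The livers of the Tg group differed among themselves. Tg 5 was the highest of the 6 livers for 23 of the 42 genes, or 54.8%, and for 22.9% of all genes tested. Tg 6 was the highest for 6, Tg 7 for 3, non-Tg 1 for 0, non-Tg 2 for 7 and non-Tg 3 for 3. Tg 7 was the lowest liver for 14 of the 42, or 33.3%, and for 16.7% of all genes. The median deviation of the 42 genes from their mean of 6 mice was 0.12 in Tg 5, -0.02 in Tg 6 and -0.06 in Tg 7, against -0.03, 0.01 and -0.07 in non-Tg 1, 2 and 3. Without Tg 5 the median difference over the 42 genes was -0.02, and without Tg 7 it was 0.06. By main source, the 36 tested genes made chiefly by hepatocytes had a median difference of 0.03, and the 6 made chiefly by other cells one of -0.16. Among the latter, F3, Plat, Plau and C3ar1 were dim, with mean signals of 6.03 to 7.18 and SEs of 0.36 to 0.67. The medians by source are thus not a shown difference between cell types. C6 differed by 0.46 to 0.65 when each mouse was left out in turn.

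**Figure D4:**
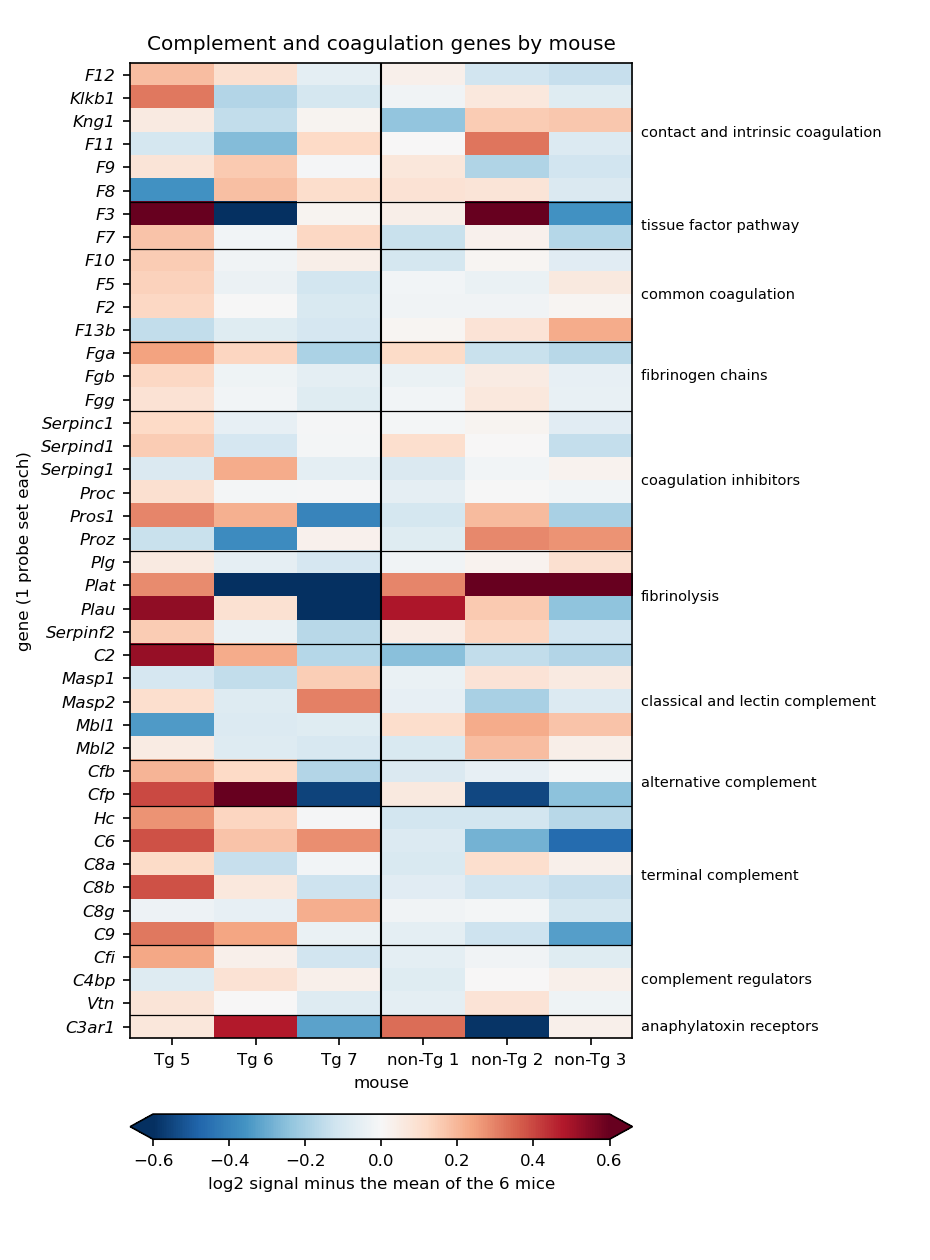
Log2 signal of each of the 42 tested genes in each mouse minus the mean of that gene over the 6 mice, with Tg mice left of the line and colours limited at 0.6 either way. Tg 5 is the highest liver for 23 genes, and C6 is the row in which all Tg livers are most clearly above all non-Tg livers.

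The 2 sets of arrays gave different pictures for many of these genes. Within the lower set, Tg 5 and Tg 6 against non-Tg 1, 30 of the 42 differences were above 0, with a median of 0.08. Within the higher set, Tg 7 against non-Tg 2 and non-Tg 3, 15 were above 0, with a median of -0.06. Over all genes tested the medians were -0.01 within the lower set and 0.01 within the higher set. For 19 of the 42 genes the difference had the same sign in both sets, and C6, C9, Hc, Mbl1, F13b, Proz and Plat were among them. C2 and Cfp were not. In C6, C9, Hc, Mbl1, F13b and Plat the groups did not overlap. Their sign was thus fixed in advance in both sets, since each set holds mice of both groups. For 6 of the 11 branches the medians inside the sets had opposite signs, namely the common path, fibrinogen, the clotting inhibitors, the classical and lectin genes, the alternative pathway and the regulators. The terminal genes had medians of 0.30 and 0.16. These comparisons rest on 1 mouse on one side and carry no test.

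**Figure D5:**
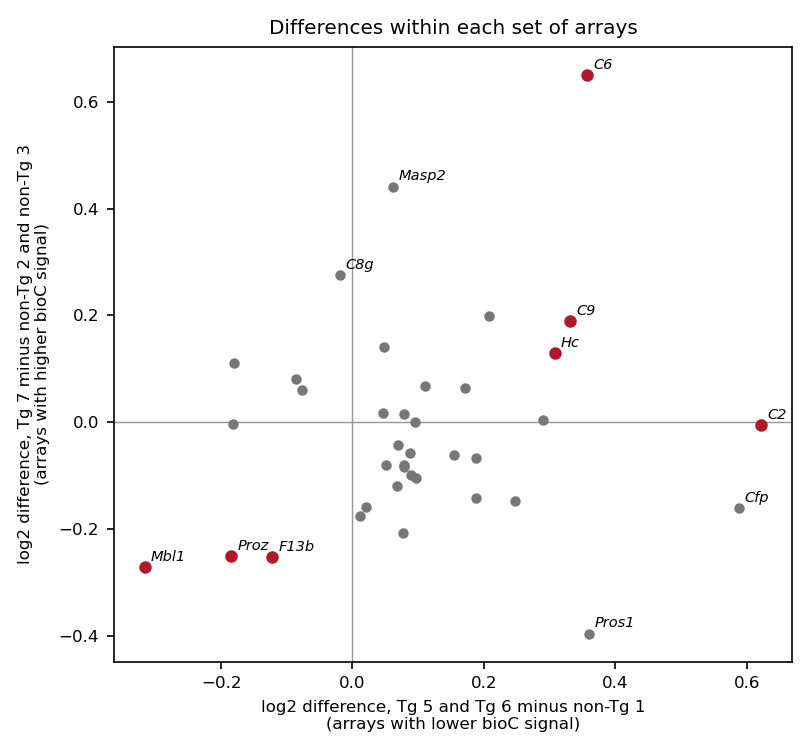
Log2 difference within the arrays of lower bioC signal (x axis, Tg 5 and Tg 6 minus non-Tg 1) against that within the arrays of higher bioC signal (y axis, Tg 7 minus non-Tg 2 and non-Tg 3), for the 38 genes with a mean log2 signal above 8. Red points have an unadjusted p under 0.05. C6, C9 and Hc lie above 0 on both axes, Mbl1, Proz and F13b below 0 on both, and C2 differs on the x axis alone. For C6, C9, Hc, Mbl1 and F13b the groups do not overlap, which fixes the sign on both axes.

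Genes of the acute phase and of interleukin-6 signalling were read beside these factors. Of 25 listed, all tested, 22 stood above 0, or 88%, against 52.1% of all genes. Their median was 0.35, and none passed the adjusted limma threshold in the fit without a block. An unadjusted limma p under 0.05 was seen for 6 higher and 0 lower genes, or 24% of the 25, against 6.05% of all genes. The median of the list was 0.31 and 0.06 inside the lower and the higher array set, and without Tg 6 it was 0.10. The metallothioneins Mt1 and Mt2, small metal-binding proteins, had the largest differences of the list. Mt1 had signals of 15.37, 15.45 and 14.23 in Tg livers, against 14.21, 11.97 and 12.40 in non-Tg livers. Mt2 had signals of 13.45, 14.48 and 12.82 in Tg livers, against 12.62, 10.43 and 11.05 in non-Tg livers. The groups did not overlap for either gene, and non-Tg 1 was the highest of the non-Tg livers for both. Mt1 differed by 2.16 ± 0.52 (SE) and Mt2 by 2.21 ± 0.53 (SE), with limma adjusted p-values of 0.653 and 0.653. With the array sets as a block Mt1 passed, at 1.62 ± 0.18 (SE) and a limma adjusted p of 0.0446. Mt1 has another kept probe set, whose values are not given here. Mt2 did not pass in that fit, at 1.71 ± 0.29 (SE) and an adjusted p of 0.274. The block left 5 genes higher and 1 lower at an unadjusted limma p under 0.05, again 24% of the 25, against 5.67% of all genes in that fit. The lower one was Socs3, an inhibitor of interleukin-6 signalling, at -0.59. Il6ra, the interleukin-6 receptor, had signals of 9.96, 10.20 and 10.19 in Tg livers, against 9.53, 9.01 and 9.51 in non-Tg livers. The Tg livers lay above the non-Tg livers without overlap, and the difference was 0.77 ± 0.18 (SE), with a p from limma of 0.00172, or 0.653 once adjusted. The other Il6ra probe set gave 0.33. Orm1, another gene of the list, had signals of 14.90, 15.25 and 14.77 in Tg livers, against 14.78, 14.56 and 14.52 in non-Tg livers. Tg 6 was the highest and the groups overlapped. Orm1 differed by 0.35 ± 0.13 (SE), with a p from limma of 0.0190, or 0.787 once adjusted. Apcs, serum amyloid P, is a classical acute phase protein of the mouse. Its signals were 12.45, 12.07 and 11.87 in Tg livers, against 11.63, 11.81 and 11.75 in non-Tg livers, with Tg 5 the highest. Apcs differed by 0.40 ± 0.15 (SE), with a p from limma of 0.0235, or 0.787 once adjusted. Saa1, by contrast, had signals of 12.46, 15.02 and 12.69 in Tg livers, against 12.81, 12.70 and 12.94 in non-Tg livers, so Tg 6 alone was high. Saa1 differed by 0.57 with Tg 6 and by -0.24 without it.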

How the data were processed

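Liver RNA of 6 mice was hybridised to Affymetrix Mouse Genome arrays, 1 per mouse, with 5 µg of RNA labelled, per the protocols given. The table as deposited holds the authors' log2 signal of 45101 probe sets. GCOS is named in the submitters' processing notes; the algorithm and version were not given in the sources used here. Antilogged signals, with 2% trimmed at each end of each array, have a mean of 500.0 when averaged over the 6 arrays.

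GEO's platform annotation gave 1 symbol for 34945 probe sets, and the 64 control probe sets were left out. Probe sets with a mean above the 40th percentile (log2 5.63) were kept, and for each gene the one with the highest mean was used. All 12705 genes were fitted with limma 3.58.1 (R 4.3.3; lmFit, eBayes with trend), 2-sided, with Benjamini-Hochberg adjustment over all of them at 0.05. SEs and intervals come from that fit. The fit was tested on simulated data. Promoters are RefSeq's on GRCm38.p6; the same annotation served for gene order. Alternatives were other constants before the log (16, 64), filters, scalings, moderation, array weights, probe set choices, the array sets as a block and leaving out each mouse.

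The genes and lists were chosen with earlier results of these data known. Values of every mouse are given for the 3 genes of smallest p in each branch, for those with an unadjusted p under 0.05, for those without overlap that differed by at least 0.3, and for the fibrinogen chains and anaphylatoxin receptors; the others are given by range. From the wider lists, genes with an unadjusted p under 0.05 (at most 5 a list) and up to 4 further bright genes could be named. Saa1, Socs3, the C1q chains and the lymphocyte genes were added after their values were seen, as was the comparison of C6 and C9 by position. Figures were drawn with matplotlib 3.10.9.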

Additional observations from a re-analysis of the deposited data

How the results depend on the processing

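None of the 42 genes passed the adjusted limma threshold under any of 18 alternatives, and the smallest adjusted p among them ran from 0.263 to 0.996. Over all genes the number passing was 4 with 16 added before the log, 6 with 64 added, 5 with arrays centred on the median, 4 with robust moderation, 4 with the array sets as a block and 1 with the other probe set of genes that have several, against 2 as reported; leaving out each mouse gave 2 to 3. The median difference over the set was -0.047 with arrays centred on the median, and -0.018 to 0.063 when each mouse was left out, the lowest without Tg 5 and the highest without Tg 7. The count at an unadjusted p under 0.05, reported as 8, was 3 without the intensity trend, 5 with median centring, 4 with the block, and 2 to 10 when each mouse was left out, at 2 without non-Tg 3, 4 without Tg 5 or non-Tg 2, 5 without Tg 6 and 10 without Tg 7. C6, C9, Hc, C2, Mbl1, F13b and Plat kept their direction in all alternatives that gave a value. Apart from C2, their groups did not overlap and they had no other kept probe set. Leaving out a mouse, adding a constant, the block and the probe set choice could thus not turn their sign. Proz changed sign to 0.13 with its other probe set, and the cause was not tested. Plat stood at -0.74 with 64 added before the log, and at -2.11 without Tg 5 to -0.99 without Tg 6. Its unadjusted limma p was 0.154 without non-Tg 2. Counting without Plat, chosen after seeing the data, gave 7 genes in place of 8. The filter at the 70th percentile left out F3, Plat, Plau and C3ar1. No paired analysis was possible because the groups share no replicate number. With 3 arrays per group, and no detection calls used, small differences of dim genes could not be resolved.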

Other observations

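Factors that bind promoters of liver genes differed in several directions. Of 9 tested, none passed the adjusted limma threshold in the fit without a block, and 3 had an unadjusted p under 0.05, or 33.3%, against 6.05% of all genes. Foxa3, a forkhead factor of hepatocytes, had signals of 11.43, 11.51 and 11.18 in Tg livers, against 11.11, 10.82 and 10.59 in non-Tg livers, with a difference of 0.53 ± 0.16 (SE). Nr5a2, a nuclear receptor, differed by -0.55 ± 0.15 (SE) and Onecut1, hepatocyte nuclear factor 6, by -0.97 ± 0.37 (SE). Other kept probe sets gave -0.02 and 0.03 for Nr5a2 and -0.64 for Onecut1. With the array sets as a block Onecut1 passed, at -1.35 ± 0.15 (SE) and a limma adjusted p of 0.0446, while Foxa3 and Nr5a2 did not. Inside the lower and the higher array set Onecut1 differed by -1.23 and -1.46. Hnf4a, a main regulator of hepatocyte genes, stood at -0.01, and Cebpa at 0.03.

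The cycle that supplies vitamin K to the clotting factors, and the receptors that carry factors V and VIII out of the cell, were measured in 8 genes, and none had an unadjusted limma p under 0.05. Lman1 and Mcfd2, which form that cargo receptor, differed by 0.23 ± 0.12 (SE) and 0.18 ± 0.11 (SE). P4hb, a protein disulfide isomerase of the secretory path, stood at 0.02. Vkorc1, which recycles vitamin K, had signals of 14.32, 14.19 and 14.32 in Tg livers, against 14.38, 14.37 and 14.55 in non-Tg livers, without overlap, and differed by -0.16 ± 0.09 (SE), with a limma p of 0.101.

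Markers of other cells that liver can hold gave these medians: -0.40 over 8 stellate cell genes, with Lrat at -0.93 and Reln at -0.52 (other probe sets -0.46 and 0.89), -0.35 over 4 adipocyte genes, -0.48 over 4 bile duct genes, 0.28 over 6 platelet genes, 0.14 over 7 neutrophil and monocyte genes, and 0.12 over 7 lymphocyte genes. Medians inside the lower and the higher array set were of opposite sign for the bile duct genes, at -1.39 and 0.40, and for the neutrophil and monocyte genes, at 1.20 and -0.82. The mean log2 signal of the adipocyte genes was 10.78, 10.78 and 10.77 in Tg livers, against 10.74, 11.38 and 11.20 in non-Tg livers. The lymphocyte genes ran from -0.13 to 2.31, and 1 of the 7 had an unadjusted limma p under 0.05, higher in Tg livers, or 14.3%. Lower at that p were 2 of the 8 stellate cell genes and 1 of the 4 adipocyte genes, or 25% each. None of the bile duct, platelet, or neutrophil and monocyte genes reached it, and the share over all genes was 6.05%. Nkg7, Gzma and Cd3g stayed above 0 whichever mouse was left out, Nkg7 at 0.86 to 3.21. Cd8a, Cd79a, Cd79b and Ms4a1 took both signs. The list was dim, with a mean log2 signal of 7.14, 7.11 and 6.35 in Tg livers, against 6.68, 5.41 and 6.45 in non-Tg livers.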
